A study of Mus musculus with 8 samples.

Results

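The genes described here are the mouse fibroblast growth factor (FGF) ligands, their receptors and the genes that FGF signalling induces to restrain or carry itself, 37 genes in all of the 35513 genes named in the array files. They were chosen by symbol and not by their values: 18 genes for secreted ligands (Fgf1 to Fgf10, Fgf15 to Fgf18 and Fgf20 to Fgf23), 4 for intracellular FGFs (Fgf11 to Fgf14), 4 for receptors (Fgfr1 to Fgfr4), and 11 feedback genes (Spry1 to Spry4, Spred1 to Spred3, Dusp6, Etv1, Etv4 and Etv5). Each gene was read by its probe with the highest mean intensity. Of the 37 genes, 33 were well above background, by the image software's flag, on at least 2 of 8 arrays and were tested, while Fgf17 and Fgf21 reached that level on 1 array each and Fgf20 and Spry3 on none.

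Secreted FGFs bind receptor tyrosine kinases together with heparan sulfate, and the receptors signal through Ras to the kinase ERK. ERK signalling induces its own restraints, among them the Sprouty and Spred proteins, which block the route from receptor to ERK, and the phosphatase Dusp6, which inactivates ERK, and it induces the ETS factors Etv1, Etv4 and Etv5, which carry the signal to target genes. In neural stem and progenitor cells FGF2 is a mitogen used to grow neurospheres, and in the embryonic brain Fgf8 and Fgf15 mark signalling centres such as the isthmus and the anterior neural ridge.

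The RNA was that of neurospheres, suspended balls of cells with neural stem cell properties, derived from EB3, a line of mouse embryonic stem cells. Embryoid bodies formed with Noggin, a BMP inhibitor, were dissociated, infected with lentivirus at an MOI of about 25 and grown in 20 ng/ml FGF2, so every culture received the same added ligand. Tertiary neurospheres (P2) were passaged from secondary ones and grown for 6 days, and primary neurospheres (P0) were grown for 6 days from the embryoid bodies. At each passage there were 4 cultures: an shRNA against both Nr2f1 and Nr2f2 (Nr2f1/2 shRNA) and a control shRNA against firefly luciferase, and miR-17 and a control miRNA against lacZ. Each of the 8 groups was 1 culture on 1 array, and whether they were separate experiments is not stated, so p-values measure only the spread between these arrays. A difference between 2 arrays of one passage had no replicate and no test.

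Sequences are shown here for the items to which the results below return. The upstream windows of Dusp6 and Spry1 belong to feedback genes whose levels spread widely over the arrays, and those of Fgf12 to a gene called between passages. They are the 250 bases before annotated starts (RefSeq, GRCm38.p6), at chr10:99262981-99263230 on the plus strand for Dusp6, chr3:37639697-37639946 on the plus strand for Spry1, and chr16:28446076-28446325 and chr16:28564952-28565201 on the minus strand for Fgf12, which has 4 windows in the table, of which the 2 with a match to a motif searched here are printed. Capitals mark matches to CCGGAA, a core bound by ETS factors, or to AGGTCA, a half-site bound by nuclear receptors of the family of Nr2f1 and Nr2f2, searched on both strands, where the end of the first motif can overlap the start of the second by a single base.
Dusp6: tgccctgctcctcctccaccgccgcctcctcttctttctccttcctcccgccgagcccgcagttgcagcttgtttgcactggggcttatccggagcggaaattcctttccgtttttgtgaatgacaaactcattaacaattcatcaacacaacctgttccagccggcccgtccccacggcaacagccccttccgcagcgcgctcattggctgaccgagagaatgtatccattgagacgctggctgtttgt
Spry1: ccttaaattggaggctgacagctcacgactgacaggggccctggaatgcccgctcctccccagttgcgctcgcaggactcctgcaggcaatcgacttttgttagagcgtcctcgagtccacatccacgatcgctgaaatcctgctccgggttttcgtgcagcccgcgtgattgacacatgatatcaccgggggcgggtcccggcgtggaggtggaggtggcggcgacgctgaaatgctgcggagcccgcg
Fgf12, window with CCGGAA: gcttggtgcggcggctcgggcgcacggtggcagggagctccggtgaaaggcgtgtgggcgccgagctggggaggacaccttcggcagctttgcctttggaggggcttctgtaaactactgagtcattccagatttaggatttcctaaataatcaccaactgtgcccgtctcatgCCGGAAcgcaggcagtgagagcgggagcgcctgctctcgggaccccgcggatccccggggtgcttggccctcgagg
Fgf12, window with TGACCT: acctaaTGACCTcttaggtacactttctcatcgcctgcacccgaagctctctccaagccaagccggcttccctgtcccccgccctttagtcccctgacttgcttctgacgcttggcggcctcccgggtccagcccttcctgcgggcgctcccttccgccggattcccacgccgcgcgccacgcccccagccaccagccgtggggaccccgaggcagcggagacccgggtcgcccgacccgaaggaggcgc

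The first Fgf12 window printed held CCGGAA and the second held AGGTCA as its reverse complement TGACCT, while the other 2 windows of Fgf12 and the single windows of Dusp6 and Spry1 held neither string. CCGGAA was present in 12.03% of the 32851 windows of the table and in 3 of the 36 windows of FGF genes, those of Fgf12, Fgf5 and Fgfr4. AGGTCA was present in 14.02% of all windows and in 3 of the 36, those of Fgf12, Fgf6 and Fgf7. Of the 37 genes, 27 had a window in the table. These matches are letters in a window and were tied to no binding data.

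The other 2 sequences are the mature miRNA behind the miR-17 cultures and a probe that holds a long repeat, of a gene whose probes disagreed. The labels name miR-17 without an arm, and the 5p form (RefSeq, GRCm38.p6, chr14:115043684-115043706 on the plus strand) is printed with its seed, bases 2 to 8, in capitals. The table lists 7 mature mouse miRNAs with that seed, including miR-20a-5p, miR-93-5p and miR-106b-5p. For the Fgf23 probe, which lies at chr6:127030758-127030817 in mm9, the build of the array files, the first 30 of 60 bases are printed with a run of 10 CA repeats in capitals.
mmu-miR-17-5p: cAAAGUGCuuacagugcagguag
Fgf23 probe, first bases: cCACACACACACACACACACAtacatgtaa

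The scanned arrays were of similar quality. The 75th percentile of intensity ran between 530 and 1065, between 57.9% and 67.9% of spots were well above background, and no spot was saturated. Levels are given below as intensity relative to the array's 75th percentile, which is 1, and each gene is set only against itself across arrays. The targets of the shRNA were lower in the Nr2f1/2 shRNA culture than in the control shRNA culture, Nr2f1 by 55.6% and Nr2f2 by 46.4% at P2, and by 42.2% and 29.6% at P0. Both also differed between the control arrays: control miRNA minus control shRNA was 0.77 log2 units for Nr2f1 and -1.20 for Nr2f2 at P2, and -1.08 and -1.11 at P0, so 3 of these 4 differences exceeded 2-fold. All 8 neural progenitor markers examined, Sox1, Sox2, Nes, Pax6, Msi1, Fabp7, Prom1 and Vim, were measured, and their mean log2 level lay between 3.07 and 3.47 on the P2 arrays and between 2.8 and 3.24 on the P0 arrays. These means pool genes that differed with passage in opposite directions, as given below. Both shRNA vectors lay in slide column 1 and both miRNA vectors in column 2, so vector system and slide column cannot be told apart.

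Between P2 and P0 neurospheres, Fgf1 and Fgf12 rose and Fgf4 fell. These 3 of the 33 tested FGF genes were called by limma at a Benjamini-Hochberg adjusted p under 0.05, against 4.97% of the 27120 genes tested (2.61% higher and 2.36% lower). The median log2 difference of the 33 genes was -0.31, against -0.21 over all genes tested. In 5 FGF genes all 4 P2 arrays lay outside the range of the 4 P0 arrays, Fgf1, Fgf7 and Fgf12 above it and Fgf16 and Fgf22 below it, against 24.5% of all genes tested (9.3% above and 15.2% below). The calls depended on which conditions entered the contrast. Leaving out either array of a condition removes that condition from it and lowers the residual degrees of freedom. With either Nr2f1/2 shRNA array left out, which removes that condition from the contrast, 9 FGF genes were called (Fgf1, Fgf12 and Fgfr4 higher; Fgf4, Fgf5, Fgf8, Fgf15, Spry1 and Spred3 lower) against 17.6% of all genes (8.05% higher and 9.58% lower), and with any of the other 6 arrays left out no gene of the 27120 was called. On the 4 miRNA-vector arrays alone 20 FGF genes were called, 5 higher and 15 lower, against 50.7% of all genes (19.3% higher and 31.3% lower).

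**Figure D1:**
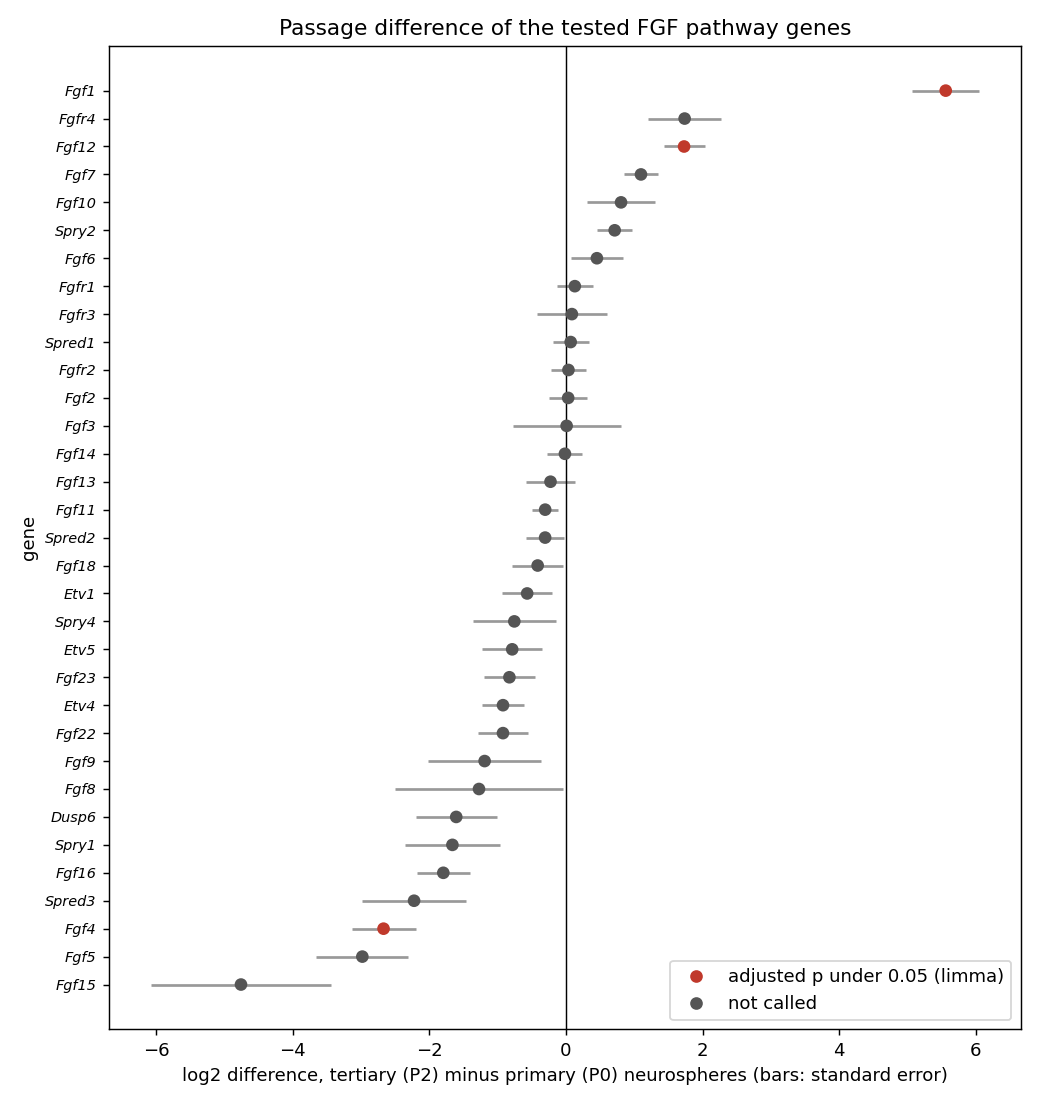
Log2 difference of P2 minus P0 neurospheres for the 33 tested FGF genes, fitted over 4 P2 and 4 P0 arrays with condition as a factor; bars are the standard error and red points have a limma adjusted p under 0.05. Fgf1 at 5.56 and Fgf12 at 1.73 are the called genes to the right of 0 and Fgf4 at -2.67 is the called gene to the left, while Fgf15 at -4.76 has a standard error of 1.33 and was not called.

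Fgf1, a ligand that binds all 4 receptors, had the largest fitted passage difference of the FGF genes. Its relative intensity at P2 was 0.891 in the Nr2f1/2 shRNA culture, 1.80 in the control shRNA culture, 1.63 in the miR-17 culture and 3.62 in the control miRNA culture, against 0.00934, 0.0194, 0.0946 and 0.112 in the same 4 conditions at P0. All P2 arrays lay above all P0 arrays, and both P0 shRNA arrays were not well above background. Fgf1 rose by at least 31.4-fold (fitted log2 difference 5.56 ± 0.49 SE, limma adjusted p = 0.0297, n = 4 arrays each, higher in 4 of 4 conditions). A second Fgf1 probe, well above background on 4 of 8 arrays, differed by 0.28 log2 units, and the mean of both probes by 2.92 (limma adjusted p = 0.0364). It was called in 10 of 18 alternatives, whose limma adjusted p ran from 0.00253 to 0.142. Leaving out either array of a condition gives the same passage fit, and counts of alternatives include both, here and below. In bulk RNA, a change in the number of cells of a type and a change in RNA per cell cannot be told apart, here and below.

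Fgf4, a ligand of pluripotent cells, went the other way. It read 0.0275, 0.0879, 0.00846 and 0.0267 in the Nr2f1/2 shRNA, control shRNA, miR-17 and control miRNA cultures at P2, against 0.574, 0.434, 0.0359 and 0.101 at P0. Both P2 miRNA-vector arrays and the P0 miR-17 array were not well above background, and each condition was lower at P2 than at P0. Fgf4 fell by at least 4.76-fold (fitted log2 difference -2.67 ± 0.47 SE, limma adjusted p = 0.0471, lower in 4 of 4 conditions), and it was called in 7 of 18 alternatives, whose limma adjusted p ran from 0.00439 to 0.169. Markers of pluripotent cells mostly lay in the same direction: the passage median of 6 such genes was -1.59, with Zfp42 and Esrrb called lower and none called higher. The exception was Nanog, well above background on all 8 arrays, at 0.05 log2 units (limma adjusted p = 0.854). The mean log2 level of these markers ran from -4.04 to -2.92 on the P2 arrays and from -2.89 to -1.08 on the P0 arrays. Their part in the Fgf4 difference was not tested.

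Fgf5, a ligand of the early epiblast, had 0.0930, 0.0704, 0.00697 and 0.00654 in the Nr2f1/2 shRNA, control shRNA, miR-17 and control miRNA cultures at P2, against 0.221, 0.277, 0.0856 and 0.222 at P0. It was lower at P2 in every condition and not well above background on both P2 miRNA-vector arrays, and the difference missed the threshold (at least 3.95-fold lower, log2 -2.98 ± 0.67 SE, limma adjusted p = 0.0603). Fgf16 lay lower on all P2 arrays with a bound of at least 2.42-fold (limma adjusted p = 0.0580), and 4 of its 8 readings were not well above background. Fgf7, which signals to epithelia through an Fgfr2 isoform, had 0.145, 0.185, 0.124 and 0.148 at P2, against 0.0695, 0.0531, 0.0817 and 0.0773 at P0, and its separation of 1.10 ± 0.25 log2 units was not called (limma adjusted p = 0.0610).

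Fgf8, the isthmus and anterior ridge ligand, was high on a single P2 array. At P2 it read 7.48 in the Nr2f1/2 shRNA culture, against 0.147 in the control shRNA culture, and 0.101 in the miR-17 culture, against 0.109 in the control miRNA culture. At P0 the same conditions read 0.812 and 0.324, and 0.976 and 1.60. The Nr2f1/2 shRNA culture was thus 50.8-fold above its control at P2 and 2.50-fold above it at P0. The chosen probe lies at chr19:45811355-45811414 (mm9). A second probe, at chr19:45811668-45811727, gave log2 differences of 6.33 at P2 and 1.82 at P0 for the same comparison, against 5.67 and 1.32 for the chosen one, while the remaining probe was well above background on 1 array. On the chosen probe, control miRNA was 1.36-fold below control shRNA at P2 and 4.94-fold above it at P0. The P0 Nr2f1/2 shRNA reading thus lay between the control readings of that passage.

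Fgf15, the mouse counterpart of human FGF19 and a neuroepithelial ligand in the embryo, read near its P0 level on that array alone among the P2 arrays. It read 6.22 in the Nr2f1/2 shRNA culture and 0.407 in the control shRNA culture at P2, and 0.0436 in the miR-17 culture and 0.0669 in the control miRNA culture, against 6.47, 8.07, 5.36 and 14.2 in the 4 conditions at P0. The log2 difference of P2 minus P0 was -0.06 with Nr2f1/2 shRNA, against -4.31 with control shRNA, and -6.94 with miR-17, against -7.73 with control miRNA. The passage difference over all conditions was -4.76 ± 1.33 SE and was not called (limma adjusted p = 0.0737).

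Fgf18, which shares a subfamily with Fgf8, had 3.23 in the Nr2f1/2 shRNA culture and 0.742 in the control shRNA culture at P2, and 1.13 in the miR-17 culture and 1.95 in the control miRNA culture. At P0 the 4 readings were 1.80, 1.59, 1.58 and 3.71. The Nr2f1/2 shRNA culture was 4.36-fold above control shRNA at P2 on this probe, with a log2 difference of 2.12, against 2.22 on a second probe. At P0 the difference was 0.18 log2 units.

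Fgf9 and Fgf10 differed between the vector systems, in opposite directions at the 2 passages. Fgf9, a glial mitogen, had 0.825, 0.523, 0.164 and 0.0827 in the Nr2f1/2 shRNA, control shRNA, miR-17 and control miRNA cultures at P2, against 0.407, 0.441, 1.10 and 0.803 at P0. Fgf10, a ligand of epithelial Fgfr2, had 0.332, 0.372, 0.146 and 0.114 at P2, against 0.121, 0.0796, 0.182 and 0.126 at P0. Both were thus lower with the miRNA vectors than with the shRNA vectors at P2 and higher with them at P0. Fgf3 was well above background only with miRNA vectors, at 0.0982 with miR-17 and 0.0936 with control miRNA at P2 and at 0.135 with control miRNA at P0. The mRNA of Fgf2, the ligand supplied in the medium, read 0.0282, 0.0404, 0.0571 and 0.0704 at P2, against 0.0376, 0.0223, 0.0709 and 0.0706 at P0, where the control shRNA reading was not well above background, and the passages overlapped.

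Probes of 3 further ligands did not give a single picture. The chosen Fgf23 probe, the one with the CA repeats, read 24.0, 23.8, 47.2 and 47.4 at P2, against 29.0, 22.9, 159 and 121 at P0, while the other Fgf23 probe, whose longest CA run is 1 repeat, was well above background on 1 array. No direction is drawn for Fgf23, but the counts of FGF genes include its chosen probe, among the 15 lower at P2 on the miRNA-vector arrays alone and the 6 higher with control miRNA than with control shRNA at P0. For Fgf6 the chosen probe differed by 0.45 log2 units between P2 and P0 and the other by -2.15. For Fgf22 the chosen probe ran from 0.0629 to 0.109 at P2 and from 0.111 to 0.266 at P0, and the other probe was well above background on 3 arrays.

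**Figure D2:**
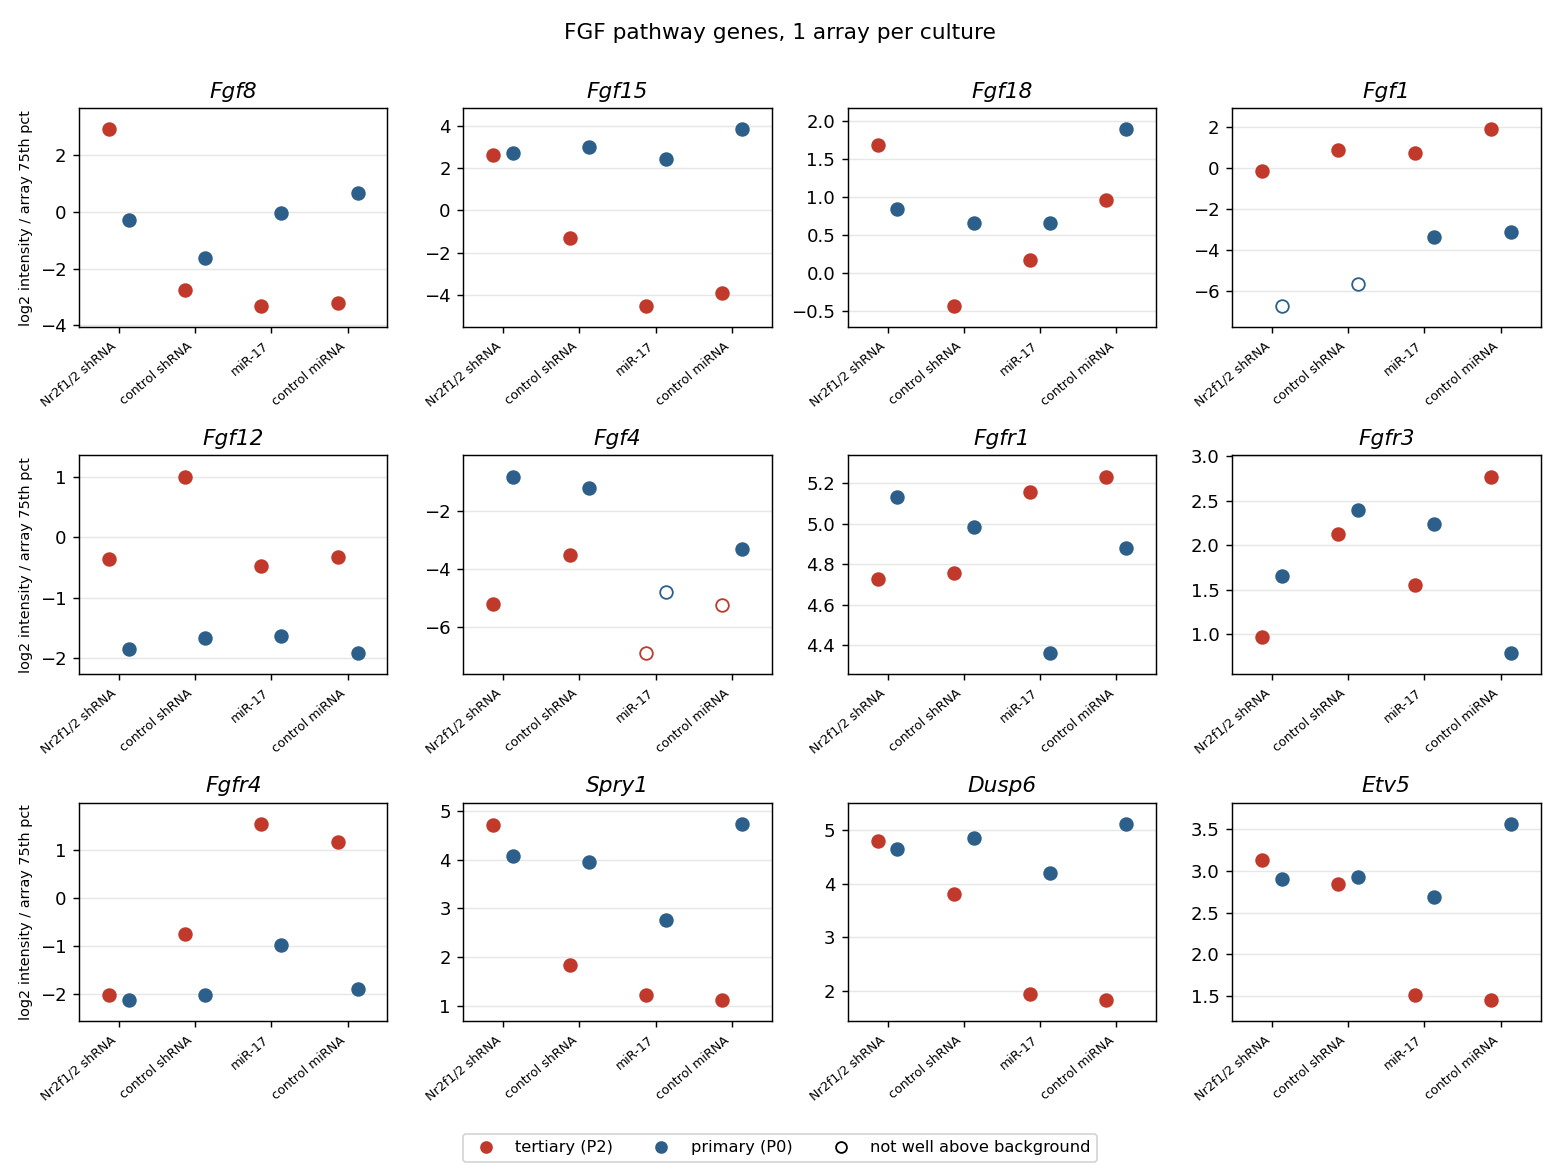
Log2 intensity relative to the array's 75th percentile for 12 FGF genes, with P2 arrays in red to the left of P0 arrays in blue in each condition, 1 array a point; open points were not well above background. On the Nr2f1/2 shRNA array at P2, Fgf8 stands at 2.90, against -2.76 with control shRNA, and Fgf15 at 2.64, against -1.30, while Fgf1 and Fgf12 stand higher at P2 in each condition.

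Among the intracellular FGFs, which are not secreted and bind voltage-gated sodium channels, 1 of 4 changed with passage. Fgf12 had 0.781, 2.00, 0.717 and 0.801 in the Nr2f1/2 shRNA, control shRNA, miR-17 and control miRNA cultures at P2, against 0.276, 0.315, 0.323 and 0.265 at P0. All P2 arrays lay above all P0 arrays, with the control shRNA array highest. Fgf12 rose by 1.73 ± 0.30 log2 units, or 3.32-fold (limma adjusted p = 0.0463), its second probe differed by 1.57, and it was called in 9 of 19 alternatives, whose limma adjusted p ran from 0.0131 to 0.178. The chosen probe, at chr16:28160281-28160340 (mm9), was spotted 10 times on each array, and 2 of the gene's 4 upstream windows are printed above.

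Fgf13 had 0.350, 0.717, 0.229 and 0.166 at P2, against 0.681, 0.387, 0.245 and 0.277 at P0. Fgf14 had 0.285, 0.248, 0.109 and 0.0624 at P2, against 0.189, 0.228, 0.121 and 0.0968 at P0. In both genes the passages overlapped and the miRNA-vector arrays lay below the shRNA arrays of their passage. Fgf11 ran from 0.0896 to 0.162 at P2 and from 0.125 to 0.227 at P0.

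None of the 4 receptors was called between passages. Fgfr1, the main receptor of neural progenitors, had 26.5, 27.1, 35.7 and 37.6 in the Nr2f1/2 shRNA, control shRNA, miR-17 and control miRNA cultures at P2, against 35.1, 31.7, 20.5 and 29.4 at P0. Fgfr2 had 0.388, 0.384, 0.809 and 0.705 at P2, against 0.485, 0.537, 0.535 and 0.551 at P0. In both the P2 and P0 arrays overlapped, and on these chosen probes the miRNA-vector arrays were the highest of the P2 arrays. A second Fgfr1 probe, well above background on all 8 arrays, read 0.895, 0.809, 0.800 and 0.893 at P2. There the miRNA-vector arrays were not the highest, and the passage difference was -0.75 log2 units. It was -0.05 on the remaining Fgfr1 probe and 0.13 on the chosen one.

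Fgfr3, found on neural progenitors and astrocytes, had 1.96, 4.36, 2.93 and 6.82 at P2, against 3.14, 5.27, 4.70 and 1.73 at P0. It differed between single arrays, being 2.22-fold lower with Nr2f1/2 shRNA than with control shRNA at P2, and with miR-17 2.33-fold lower than with control miRNA at P2 and 2.72-fold higher at P0. Its second probe had the same signs with smaller differences, -0.77, -0.49 and 1.21 on the log2 scale. Fgfr4 had 0.245, 0.595, 2.90 and 2.24 at P2, against 0.230, 0.246, 0.503 and 0.268 at P0. It was 2.43-fold lower with Nr2f1/2 shRNA than with control shRNA at P2 and 3.76-fold higher with control miRNA than with control shRNA at P2. Its second probe had the same signs with smaller differences, -0.47 and 1.23 log2 units, against -1.28 and 1.91 on the chosen one. Both P2 miRNA-vector arrays lay above the other 6, and the passage difference of 1.74 ± 0.53 log2 units was not called (limma adjusted p = 0.0834), with 0.69 on the second probe.

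The feedback genes stood near or above their P0 level on the P2 Nr2f1/2 shRNA array, Etv4 apart, and most were lowest with the miRNA vectors at P2. None of the 10 tested was called between passages, and their median P2 minus P0 log2 difference was -0.77. By condition that median was 0.33 with Nr2f1/2 shRNA, against -0.24 with control shRNA, and -0.96 with miR-17, against -2.01 with control miRNA. Over all genes tested the medians in these 4 conditions were -0.11, -0.19, -0.22 and -0.24. In 8 of the 10 both P2 miRNA-vector arrays were the lowest of all 8 arrays, a pattern picked out after the values were seen. Over the 33 FGF genes this held for 15, and in 4 (Fgf6, Fgfr1, Fgfr2 and Fgfr4) these arrays were the highest, against 40.6% of all genes tested outside the other 6 arrays (21.3% above and 19.3% below). These counts rest on each gene's chosen probe. Other probes of some of these genes, among them Etv1, Fgf6, Fgf13 and Fgfr1, did not show the pattern.

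Dusp6, the ERK phosphatase, had 27.7, 14.1, 3.86 and 3.57 in the Nr2f1/2 shRNA, control shRNA, miR-17 and control miRNA cultures at P2, against 25.0, 28.8, 18.5 and 34.8 at P0. Spry1, an inhibitor of the route to ERK, had 26.3, 3.55, 2.31 and 2.17 at P2, against 16.9, 15.3, 6.80 and 26.7 at P0. With control shRNA, miR-17 and control miRNA both genes were lower at P2 than at P0, and among the P2 arrays both were highest with Nr2f1/2 shRNA, where Spry1 was 7.43-fold and Dusp6 1.96-fold above control shRNA. Spred3 had 0.195 and 0.0687 with Nr2f1/2 and control shRNA at P2 and was not well above background with either miRNA vector, against 0.181, 0.202, 0.171 and 0.228 at P0. The passage differences of these genes were not called, at -1.61 ± 0.59 for Dusp6, -1.66 ± 0.69 for Spry1 and -2.22 ± 0.76 for Spred3, at least 3.47-fold lower with its dim readings at their bound (limma adjusted p = 0.111, 0.138 and 0.0989).

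By their chosen probes, the ETS factors were likewise lowest with the miRNA vectors at P2. Etv1 had 13.1, 9.14, 4.14 and 2.92 at P2, against 10.69, 10.62, 6.48 and 9.51 at P0. A second Etv1 probe, well above background on all 8 arrays, differed by 0.005 log2 units between passages. On that probe the P2 control miRNA reading, 0.0643, lay above the P0 miR-17 reading, 0.0590. Etv5 had 8.77, 7.18, 2.85 and 2.74 at P2, against 7.5, 7.61, 6.46 and 11.8 at P0. Etv4 had 3.50, 4.45, 2.16 and 2.28 at P2, against 5.19, 6.17, 3.61 and 8.58 at P0, and was the ETS factor lower at P2 in all 4 conditions. Its difference of -0.92 ± 0.30 log2 units was not called (limma adjusted p = 0.0931).

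Among the other Sprouty and Spred genes, Spry4 and Spred2 were also lowest with the miRNA vectors at P2, and Spry2 and Spred1 were not. Spry2 had 3.01, 1.75, 1.59 and 2.18 at P2, against 1.36, 1.09, 0.794 and 2.15 at P0. It was the Sprouty gene higher at P2 in all 4 conditions, by 0.71 ± 0.25 log2 units, which was not called (limma adjusted p = 0.105). Spry4 had 0.395, 0.336, 0.0818 and 0.0692 at P2, against 0.274, 0.245, 0.213 and 0.428 at P0. Spred1 had 4.65, 3.40, 2.85 and 2.90 at P2, against 3.03, 2.81, 2.82 and 4.51 at P0. Spred2 had 1.34, 0.910, 0.534 and 0.579 at P2, against 1.03, 1.10, 0.654 and 1.18 at P0. In both the passages overlapped.

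The knockdown comparison asked how these genes differed when Nr2f1 and Nr2f2, nuclear receptors of the COUP-TF type, were reduced. At P2, 5 FGF genes were at least 2-fold higher with Nr2f1/2 shRNA than with control shRNA: Fgf8, Fgf15, Fgf18, Spry1 and Spred3. Another 6 were at least 2-fold lower: Fgf1, Fgf4, Fgf12, Fgf13, Fgfr3 and Fgfr4. These are 11 of 31 measured FGF genes, against 18.7% of all measured genes (8.77% higher and 9.92% lower). The count rests on each gene's chosen probe. Second probes of Fgf1, Fgf13, Fgfr3 and Fgfr4 fell short of 2-fold, at -0.45, -0.20, -0.77 and -0.47 log2 units. That of Fgf12 gave -1.29. At P0 Fgf8 was the 1 gene of 31 at 2-fold, against 4.14% of all genes (3.3% higher and 0.839% lower). There the control cultures differed by more in Fgf8, 4.94-fold. Of the 10 measured feedback genes, 9 lay above 0 at P2 (median 0.54, against 0.07 over all genes) and 5 at P0 (median -0.01).

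These differences came with no replicate. Averaged over both passages, limma called none of the 27120 genes for Nr2f1/2 shRNA against control shRNA (517 had an unadjusted p under 0.05, none of them an FGF gene). The interaction term sets the P2 minus P0 difference with Nr2f1/2 shRNA against the mean of that difference in both control conditions. It was 5.71 ± 1.37 SE for Fgf8, 5.96 ± 1.62 for Fgf15 and 3.51 ± 0.94 for Spry1, and limma called no gene for it (adjusted p = 0.9998 for each), although 1072 genes and 4 FGF genes had an unadjusted p under 0.05.

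Markers of other cell types and of the cell cycle also differed on the P2 Nr2f1/2 shRNA array. All 8 cell cycle genes examined were at least 2-fold higher there than with control shRNA (median log2 difference 2.50). The mean log2 level of these genes was 2.04 on that array, against -0.36 with control shRNA, and -1.27 with miR-17, against -1.21 with control miRNA, while the P0 arrays lay between 2.09 and 2.63. Of the astrocyte markers 7 of 8 were at least 2-fold lower (median -2.32), and of the oligodendrocyte precursor markers 5 of 6 (median -2.19). The part of these shifts in the FGF gene differences was not tested.

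**Figure D3:**
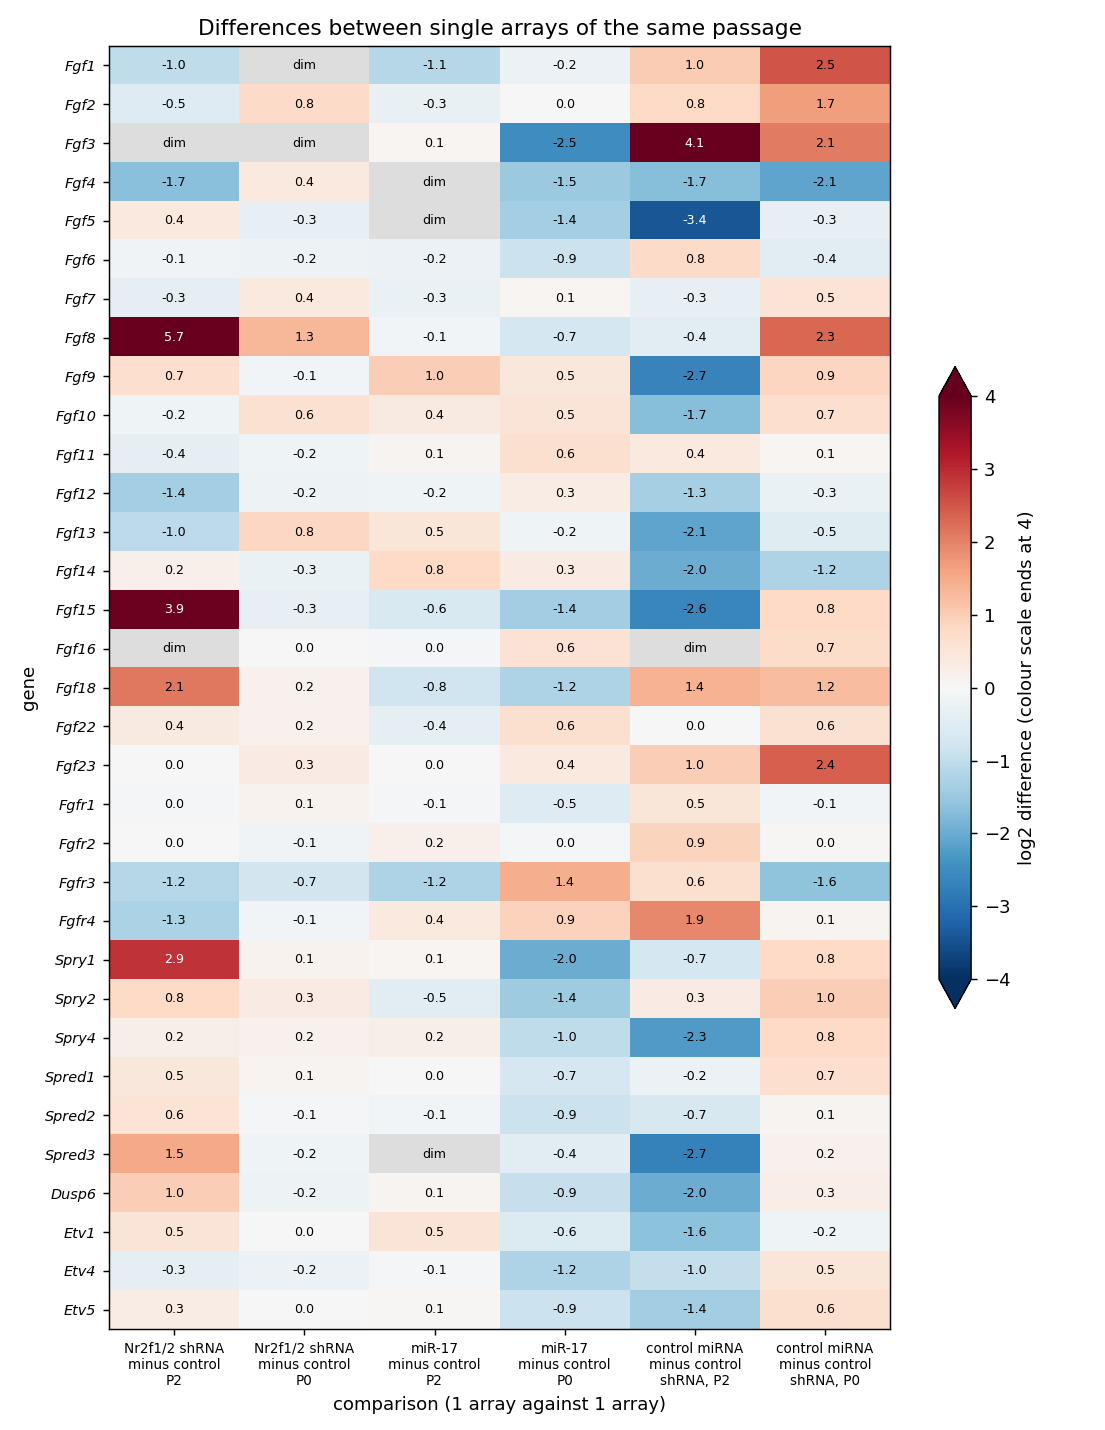
Log2 differences between single arrays of the same passage for the 33 tested FGF genes (rows) in 6 comparisons (columns), with the number printed in each cell; grey cells marked dim had neither array well above background. In the first column Fgf8 reads 5.7 and Spry1 2.9 at P2, and in the fourth column the 10 feedback genes are all below 0 with miR-17 at P0.

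The miR-17 comparison asked how the same genes differed when this miRNA was overexpressed. At P0, 9 FGF genes were at least 2-fold lower with miR-17 than with control miRNA (Fgf3, Fgf4, Fgf5, Fgf15, Fgf18, Spry1, Spry2, Spry4 and Etv4) and Fgfr3 was at least 2-fold higher. These are 10 of 33 measured FGF genes, against 5.88% of all measured genes (4.15% higher and 1.73% lower). Spry1 stood at 6.80 with miR-17, against 26.7 with control miRNA, 3.92-fold lower, and Spry2 at 0.794, against 2.15, 2.70-fold lower. All 10 measured feedback genes lay below 0, from -1.97 to -0.42, with a median of -0.89, against a median of 0.00 over all genes.

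Of those genes, Fgf3, Fgf15, Fgf18, Spry1, Spry2, Spry4 and Etv4 were highest on the control miRNA array among the 4 P0 arrays. For the feedback genes the control miRNA array stood above the control shRNA array at P0 in 9 of 10 (median 0.56, against 0.08 over all genes). At P2 only Fgf1 and Fgfr3 differed by 2-fold with miR-17, both lower, among 30 measured FGF genes, against 4.52% of all genes (3.35% higher and 1.16% lower). Of 9 measured feedback genes, 5 lay above 0 (median 0.06, against -0.01 over all genes). Over both passages limma called no gene for miR-17 against control miRNA (269 of 27120 had an unadjusted p under 0.05, 1 of them an FGF gene), and none for its interaction with passage (294 and 1). Sites for the printed seed in these mRNAs were not analysed here.

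The control arrays give a measure of how far these genes differ between cultures given neither Nr2f1/2 shRNA nor miR-17. At P2, 4 FGF genes were at least 2-fold higher with control miRNA than with control shRNA and 13 lower, or 17 of 32, against 24.4% of all genes (10.2% higher and 14.2% lower). The lower ones included Fgf5, Fgf15, Spred3, Spry4 and Dusp6, and 9 of the 10 feedback genes lay below 0 (median -1.18, against 0.15 over all genes). At P0, 6 were higher and 3 lower of 33, against 21.1% of all genes (16.3% higher and 4.81% lower). Averaged over both passages, limma called no gene for this comparison either (2599 of 27120 had an unadjusted p under 0.05, 8 of them FGF genes). These counts stand beside 11 of 31 for Nr2f1/2 shRNA against control shRNA at P2, a comparison that shares the control shRNA array.

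Genes around the pathway were followed in lists, to be read against the passage median of -0.21 and the 4.97% called over all genes. Of 13 tested ERK response genes 4 rose with passage and none fell (median 0.75): Egr2 by 4.48 ± 0.48 log2 units, Egr1 by 2.65 ± 0.48, Ier2 by 1.52 ± 0.23 and Myc by 1.36 ± 0.22 (limma adjusted p = 0.0325 to 0.0497). These are immediate early transcription factors and growth regulators. Egr1 had 41.3, 46.9, 55.7 and 60.7 at P2, against 17.8, 10.6, 4.0 and 5.61 at P0 in the 4 conditions, so its passages did not overlap. Other members of the list just missed the threshold, in both directions. Fos differed by 4.36 ± 0.81 log2 units (limma adjusted p = 0.0504). Ccnd1, a cyclin of the entry into the cell cycle, differed by -3.22 ± 0.61 log2 units (limma adjusted p = 0.0518). Dusp4, a phosphatase of ERK, differed by -2.50 ± 0.47 log2 units (limma adjusted p = 0.0517). None of the feedback genes, which ERK also induces, was called in that comparison.

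None of the 16 core genes of the route from receptor to ERK was called (median 0.21), and those with the largest differences were the adaptor Gab1 at 1.34, the kinase Mapk3 at 0.71, the phosphatase Ptpn11 at 0.69 and the exchange factor Sos2 at 0.59. Among 11 tested coreceptor and adaptor genes none was called (median -0.38). Flrt3, a membrane protein that binds FGF receptors, had 26.9, 2.98, 1.04 and 0.660 at P2, against 15.5, 14.6, 10.3 and 19.8 at P0, which is the order of the P2 arrays seen in Spry1. Fgfbp3, a secreted FGF carrier, had 12.4, 9.61, 0.967 and 1.34 at P2, against 18.8, 24.2, 24.3 and 24.5 at P0. Among 20 heparan sulfate genes none was called (median -0.30), with the glypican Gpc2 at -3.27 ± 0.61 (limma adjusted p = 0.0509) and the syndecan Sdc1 at -1.52.

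A list of 12 transcription factor and Wnt genes was drawn up for patterning at or around the isthmus and anterior neural ridge. Fgf8 and Fgf15 are made in these regions in the embryo, but the list is not limited to markers of them. Of the 12, 2 fell with passage, Sp8 by 2.46 and Emx2 by 2.18 log2 units (limma adjusted p = 0.0471 and 0.0307). None rose (median -0.95). Sp8, a zinc finger factor of the anterior ridge, had 3.57, 0.715, 0.627 and 0.633 at P2, against 6.74, 5.27, 4.42 and 5.95 at P0, so the Nr2f1/2 shRNA array was again the highest of the P2 arrays. Emx2 had 0.223, 0.234, 0.194 and 0.135 at P2, against 1.26, 1.25, 0.620 and 0.594 at P0, and that array did not stand apart.

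The cultures' cell type markers moved with passage in the same fit. Of 8 astrocyte markers 5 rose (median 5.16), of 6 oligodendrocyte precursor markers 4 rose (median 3.07) and of 6 mesenchymal markers 4 rose (median 2.38), and none of them fell. Of 6 neuron markers 1 fell, Elavl4 by 2.12 log2 units (limma adjusted p = 0.0437), with a median of -1.08, and of 7 mesoderm and endoderm markers 1 fell, Eomes by 3.37 (limma adjusted p = 0.0366), with a median of -1.34; none of either list lay above 0. Of 8 neural progenitor markers 1 rose, Fabp7 by 1.31 log2 units (limma adjusted p = 0.0428), and 6 lay above 0 (median 0.40). Nes differed by -1.80 log2 units and was not called (limma adjusted p = 0.0806). It read 0.907 with miR-17 and 1.24 with control miRNA at P2, against 7.20 and 9.17 at P0. None of the 8 cell cycle genes was called (median -2.93). The mean log2 level of the astrocyte markers was 1.07 in the Nr2f1/2 shRNA culture and 4.01 in the control shRNA culture at P2, and 5.70 with miR-17 and 5.97 with control miRNA, while the P0 arrays lay between -0.88 and -0.72. The part of these shifts in the passage differences of the FGF genes was not tested.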

How the data were processed

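RNA of 8 neurosphere cultures, 1 array each, was read on Agilent SurePrint G3 mouse arrays, labelled with Cy3 from 50 ng of RNA per the labels' protocols. Spot intensity was taken from the deposited scanner files, where Feature Extraction 10.7.3.1 had subtracted background and detrended it, per the file headers. A second deposited table holds linear signal values, each array's intensity over a single constant (481 to 949), with column medians of 0.0662 to 0.124 and no centring by gene. The sources used here do not give the origin of the constants.

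Of 59305 non-control spots, 1104 were flagged as outliers by the image software and left out, which dropped 28 of 55681 probes. Spots of a probe were averaged on the log2 scale and set relative to the 75th percentile of their array. Genes were named by the files' gene names and read by the probe with the highest mean. The 27120 genes tested had a probe well above background on 2 or more of the 8 arrays. limma 3.58.1 in R 4.3.3 used condition plus passage (3 residual and 2.19 prior degrees of freedom), or these with interactions (1 and 3.03), two-sided, with Benjamini-Hochberg adjustment over all genes. It was tested on simulated data in which each changed gene shifted with passage alike in all conditions. That setting does not cover passage differences that vary between conditions. Single arrays were compared at 2-fold where at least 1 of both was well above background.

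A fold given as "at least" sets each dim reading at the higher of its own value and the lowest signal well above background on that array. The median coefficient of variation of probes printed 10 times was 5.96% to 6.55% per array, which describes spots and not cultures. Values in every array are given for tested FGF genes that were called, past 2-fold in a single comparison, or encoding receptors or feedback proteins. Readings of Fgf3 and Spred3 that were not well above background are left out. At most 4 genes of each other list are named, with 2 exceptions. The neural progenitor markers are all named, and the ERK response list also names uncalled genes that just missed the threshold. The genes and lists were chosen with earlier results of these data known. Alternatives changed the background correction (normexp, offset 50), the normalization (quantile), the filter (none, or all 8 arrays), the probe rule (mean over probes), the source (the authors' table), the prior (trended) and the model (no condition term), or used subsets of conditions, 7 of the 8 arrays, or fold limits of 1.5 and 4. Each probe read alone was added after seeing the data.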

Additional observations from a re-analysis of the deposited data

Results flagged for a closer look

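In 4 FGF genes 1 array lay far from the other 3 arrays of its passage. The measure is the gap from the highest or lowest array to the next, divided by the range of the 4 arrays, set against Dixon's critical value for 4 arrays. For Fgf8 at P2 the Nr2f1/2 shRNA array was highest and its gap was 0.912 of the range. For Fgf12 at P2 the control shRNA array was highest, with a gap of 0.892 of the range. For Fgf18 at P0 the control miRNA array was highest, with a gap of 0.846, and for Spred1 at P0 the same array was highest, with a gap of 0.841. The measure was taken in 66 groups, 33 genes at both passages, and chance alone passes about 1 in 20 groups. The 4 arrays of a passage are 4 different conditions, so an odd array and a difference between conditions cannot be told apart here.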

How the results depend on the processing

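Between P2 and P0, 1348 genes were called, of them 3 FGF genes. The count of all genes was 7013 after normexp background correction, 3653 with a filter on all 8 arrays, 4299 with a trended prior, 3908 without the condition term, 13739 with miRNA arrays only, and 0 with shRNA arrays only or control conditions only (5008 and 5724 genes had an unadjusted p under 0.05). It ran from 0 to 4783 with 1 array left out, and 1422 were called after quantile normalization. FGF genes called numbered 7 after normexp, 1 without a filter, 5 with a trended prior, 20 with miRNA arrays only, 0 with shRNA arrays or controls only, and 0 to 9 with 1 array left out. The share of called genes that were higher at P2 was 52.6%, against 66.2% after quantile normalization, 30.7% after normexp, 42.3% with the filter on all 8 arrays, 41.9% with the trended prior, 43.5% without the condition term and 38.2% with miRNA arrays only, and quantile normalization moved the median over all genes to -0.02. The Fgf8 difference turned to 1.03 with shRNA arrays only, where the P2 array with Nr2f1/2 shRNA is 1 of 2. Of the single-array differences at 2-fold with Nr2f1/2 shRNA or miR-17, 24 of 24 stayed past 2-fold after quantile normalization and 16 of 24 after normexp, and none changed sign. With Nr2f1/2 shRNA at P2, 8 FGF genes were higher at 1.5-fold, and 3 were lower after normexp and 0 at 4-fold. At P0, 4 were higher and 1 lower at 1.5-fold, and 0 higher at 4-fold. With miR-17 at P0, 5 were lower after normexp, 15 at 1.5-fold and 1 at 4-fold, and 4 were higher at 1.5-fold and 0 at 4-fold. At P2, 2 were higher and 4 lower at 1.5-fold, and 0 lower at 4-fold. For control miRNA against control shRNA at P2, 9 were higher at 1.5-fold and 1 at 4-fold, and 8 were lower after normexp and 6 at 4-fold. At P0, 3 were higher after normexp and 16 at 1.5-fold, and 1 was lower at 4-fold. The cause of these shifts was not tested. With 1 array per group and dim readings for Fgf3, Fgf4, Fgf5, Fgf16 and Spred3, small differences were not detectable.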
